A study of Mus musculus with 38 samples.

Results

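In mouse embryonic stem cells, 243 genomic intervals were sites of HSF1, HSF2 and SOX2 alike in the deposited lists. They were taken as the intervals of the HSF2 list that shared at least 1 bp with an interval of the HSF1 list and with an interval of the SOX2 list, each repeated HSF2 interval counted once. These shared sites were 11.4% of the 2135 distinct HSF2 intervals. The remaining HSF2 intervals overlapped HSF1 but not SOX2 (625), SOX2 but not HSF1 (164) or neither (1103), and the HSF1 and SOX2 lists held 1726 and 15081 intervals. CUT&Tag, in which an antibody directs the Tn5 transposase to a protein so that the DNA beside it is cut and sequenced, was performed on JM8 cells. Endogenous HSF1, HSF2 and SOX2 were measured in wild type JM8 cells without any transgene. The other signals came from HSF2 KO (Hsf2-/-) JM8 cells that carried an integrated HaloTag construct driven by the strong, constitutive EF1α promoter. Full-length HSF2 was measured as Halo-HSF2 with an anti-HSF2 antibody, called HSF2-OE, and as HA-tagged Halo-HSF2 with an anti-HA antibody. The paper lists the HA-tagged form as a construct of its own, so these signals may differ in construct as well as in antibody. The HSF2 DBD construct (Halo-H2DBD, the DNA-binding domain with the nuclear localisation signals) was measured with anti-HA. Edited knockout colonies were picked singly, so the construct signals may stem from 1 clone. Asynchronous cells (A) had no drug, and mitotic cells (M) had nocodazole at 50 ng/ml for 6 h before mitotic shake-off, a fraction that still holds a low level of cells not in mitosis. Every condition had 2 libraries.

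Each value is the mean of the spike-in scaled coverage per base over an interval, which the authors had already averaged over the libraries of a condition. No spread between libraries can be had from such means, and no test of M against A was possible. The files carry no read depth, and the read totals that the study lists by library were not used here. Medians, quartiles and shares describe sites in these averaged tracks. Sites are not replicates of a condition, and the Wilson 95% intervals beside shares cover the number of sites only. Log2 M/A stands for the log2 ratio of M to A. The HSF1 and HSF2 lists pool intervals that the authors called in A or in M, so an interval may be listed through 1 phase alone. Their log2 M/A, at shared sites and over whole lists, thus rests on signal that also chose the intervals. The SOX2 intervals came from the literature. The scale was set within each experiment, so levels are compared here only within 1 signal. IgG, HSF2 in the knockout cells, the HA control and the mixes with wild type cells were not analysed here.

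HSF1 and HSF2 are heat shock transcription factors that bind as trimers to heat shock elements, arrays of inverted GAA units, and activate chaperone genes. SOX2 bends DNA through its HMG box and, often beside OCT4, binds enhancers and promoters that keep embryonic stem cells pluripotent. Most transcription stops in mitosis, when chromosomes condense, and some factors remain on their sites while others leave.

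A heat shock element was defined as 3 inverted units (GAA, any 2 bases, TTC, any 2 bases, GAA, or the same with GAA and TTC exchanged), searched on both strands of the GRCm38 (mm10) reference with overlapping matches counted. At least 1 element was found in 60 of the 243 shared sites (24.7%, Wilson 95% interval 19.7% to 30.5%), against 14.1% of all HSF2 intervals, 16.0% of HSF1 intervals and 0.464% of the much narrower SOX2 intervals. The HSF1 and HSF2 sites without SOX2 had 21.0% (Wilson 18.0% to 24.4%), an interval that overlaps that of the shared sites. Per kb, the wider shared sites held fewer elements (0.0751) than the sites without SOX2 (0.0935) or all HSF1 intervals (0.0949), and more than all HSF2 intervals (0.0601). Outside 1 chromosome whose elements are not described here, 66 elements lay in 58 shared sites. By GENCODE M21, 40 of these were intergenic, 21 intronic, 4 in a UTR and 1 in a coding exon. The elements of the chaperone genes Hsph1, Hsp90aa1 and Serpinh1 and of the RNA-binding protein gene Hnrnpa2b1 are shown because they lie in a UTR of at least 1 annotated transcript, close to the start. The element is in capitals, with 8 bases on either side, as read on the plus strand of GRCm38.
Hsph1, chr5:149636280-149636308: actgaggaGAACTTTCCAGAAtctgcagc
Hsp90aa1, chr12:110696379-110696407: agcctccgGAACCTTCCGGAAgaaccctc
Serpinh1, chr7:99353170-99353198: tgtcccaaGAAACTTCTGGAAagttggaa
Hnrnpa2b1, chr6:51469863-51469891: cgccgcttTTCTAGAACCTTCcccccact

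At Nodal, which encodes a TGF-beta ligand of the early embryo, the shared site held 3 elements, the most of any shared site. One lay upstream of the gene, and the other two overlapped each other in an intron, so that their units formed a longer array. The site near Hspb8, a small heat shock protein gene, also held an overlapping pair. Both are shown because they extend the basic 3 units.
Nodal upstream, chr10:61415245-61415273: ccattcatTTCAAGAACCTTCtagggctg
Nodal intron, chr10:61419544-61419572: cacttcccTTCTAGAAAGTTCtggaaggt
Nodal intron, overlapping, chr10:61419549-61419577: cccttctaGAAAGTTCTGGAAggtttgta
Hspb8, chr5:116433329-116433357: gtggcatgGAATCTTCCAGAAacttcttg
Hspb8, overlapping, chr5:116433334-116433362: atggaatcTTCCAGAAACTTCttgtgaac

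In 17 shared sites an element lay within or across the edge of the SOX2 interval itself. A SOX core (CATTGTT or CTTTGTT, either strand) was searched over the whole HSF2 interval. In 4 of the 17 sites it was found 28 to 65 bases from that element, within the limit set for showing a stretch. The next nearest cores, 76 bases away at Tead1 and 84 at Akr1b8, fell past that limit. The 4 stretches, which hold letters of both kinds of factor, are shown whole, with the element and the SOX core in capitals. The stretch of Ankrd6, which encodes an ankyrin repeat protein, lies in an intron of that gene, and the others are intergenic. Lmcd1 encodes a LIM domain protein and Tle3 a Groucho-type co-repressor. Their SOX cores lay inside the SOX2 interval, and those of Ankrd6 and 1700001K19Rik lay outside it. A match in these letters is a description and not a measured binding position.
Lmcd1, chr6:112203460-112203517: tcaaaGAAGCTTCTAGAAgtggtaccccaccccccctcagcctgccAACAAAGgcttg
Ankrd6, chr4:32941279-32941337: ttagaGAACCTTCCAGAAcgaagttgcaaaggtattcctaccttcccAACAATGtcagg
1700001K19Rik, chr12:110687903-110687982: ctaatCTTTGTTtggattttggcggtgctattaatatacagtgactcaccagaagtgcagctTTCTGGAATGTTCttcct
Tle3, chr9:61293633-61293727: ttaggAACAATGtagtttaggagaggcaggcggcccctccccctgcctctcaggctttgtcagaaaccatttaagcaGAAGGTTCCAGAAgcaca

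A SOX core alone was present in the SOX2 interval of 83 shared sites (34.2%). Counted by interval, 32.6% of the SOX2 intervals at shared sites held a core, beside 30.5% of all SOX2 intervals. Those at shared sites were wider (median 274 bp against 224 bp) and held fewer cores per kb (1.107 against 1.363). The OCT4-SOX2 composite (C, any base, TTGT, any base, ATG, any base, AAA, on either strand) is the joint element of the 2 pluripotency factors. It was found in 1 of the 243 shared sites (0.412%). Counted by interval, it was in 0.383% of the SOX2 intervals at shared sites, beside 1.11% of all SOX2 intervals. The site with the composite lies 4991 bp from a start of Ube2o, which encodes an E2/E3 ubiquitin enzyme. Its composite is in capitals.
Ube2o, chr11:116586523-116586552: gtttgttgCTTTGTTATGAAAAagcagtgt
The Ube2o site, named here because of the composite and not by the rule for named sites, had an HSF2 signal of 1.21 in A and 7.96 in M. Its SOX2 signal was 13.3 in A and 11.8 in M, so HSF2 was higher and SOX2 slightly lower in M.

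Shared sites were wide compared with other HSF2 intervals, with a median of 3058 bp against 2395 bp. A SOX2 interval filled only a small piece of each, with a median of 274 bp in all, so the HSF signals are averaged over far more DNA than the SOX2 signal. The centre of the SOX2 interval lay a median of 480 bp from the centre of the HSF2 interval (quartiles 206 and 929 bp). In 230 shared sites (94.7%) the HSF1 and SOX2 intervals also shared bases with each other. A single HSF1 interval was met at 235 sites and a single SOX2 interval at 226. Where a site met several, their signals were averaged by width, and 2 neighbouring sites whose nearest coding start was that of Tex14 shared 1 HSF1 interval. The rule asked for 1 bp, yet the smallest HSF1 overlap was 672 bp and the smallest SOX2 overlap 24 bp. Just outside the rule, the HSF1 and HSF2 site of Plin3 missed a SOX2 interval by 9 bp, with an HSF2 signal of 7.18 in A and 8.93 in M.

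Gene starts were less common at shared sites than at HSF2 sites in general. A protein-coding start lay within 1 kb of 125 shared sites (51.4%, Wilson 45.2% to 57.7%), against 73.0% of all HSF2 intervals, 48.3% of HSF1 intervals and 6.86% of SOX2 intervals. Measured from the SOX2 interval instead, 92 sites (37.9%) had a start within 1 kb and 20 (8.23%) had the start inside it. The shared sites had a median GC content of 50.9%, against 55.1% for all HSF2 intervals. Repeat sequence filled a median of 17.4% of them, against 12.4%. Chromosome 11 held 48 shared sites (19.8%), beside 15.2% of HSF2, 14.1% of HSF1 and 6.43% of SOX2 intervals. Chromosome 8 held 31 (12.8%), beside 10.4% of HSF2, 10.9% of HSF1 and 5.74% of SOX2 intervals. Within 50 kb of another shared site lay 46 of them, in 21 clusters, of which the largest had 4 sites over Aurkb, Borcs6, Tmem107 and 9130213A22Rik.

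The SOX2 signal was strong at shared sites. Its median was 37.4 in A and 44.9 in M, against 8.74 and 10.7 over all SOX2 intervals, and the median shared site exceeded 89.8% of the SOX2 list in A. HSF2 signal, at 5.85 in A and 6.87 in M, stood at the 66.9th percentile of its list in A and at the 60.4th in M. HSF1 signal, at 7.56 in A and 4.90 in M, stood at about the 60.7th and 60.6th percentile. The shared sites were therefore far above the middle of the SOX2 list and modestly above the middle of the HSF lists. The HSF1 and HSF2 sites without SOX2 had median HSF2 signals of 5.47 in A and 7.58 in M. Their HSF1 medians were 7.85 and 5.00.

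The question put to these sites was how the signals of the 3 factors compare in mitosis at the same places. HSF1 was lower in M at 229 of 243 sites (94.2%), with a median log2 M/A of −0.58 (quartiles −0.80 and −0.30). At 26 sites (10.7%) HSF1 was at least 2-fold lower, which was less common than among all HSF1 intervals (17.7%), and at 1 site it was at least 2-fold higher (0.521% of all). HSF2 was higher in M at 143 sites (58.8%, Wilson 52.6% to 64.9%), with a median of 0.14 (quartiles −0.29 and 0.68) against 0.49 over its whole list. HSF2 was at least 2-fold higher at 34 shared sites, or 14.0%, where the whole list had 30.1%. It was at least 2-fold lower at 6, or 2.47%, where the list had 7.26%. SOX2 was higher in M at 156 sites (64.2%), with a median of 0.21 (quartiles −0.23 and 0.92) against 0.34 over its list. SOX2 was at least 2-fold higher at 54 sites (22.2%) and at least 2-fold lower at 8 (3.29%), where the list had 26.8% and 10.0%. For HSF2 and SOX2, 2-fold differences in either direction made up a smaller share at shared sites than in the full lists. For HSF1 this held for lower values, and its 1 higher site was near the share of the list. It was not particular to shared sites for SOX2, which had 23.6% and 2.48% at the HSF2 and SOX2 sites without HSF1. At the HSF1 and HSF2 sites without SOX2, HSF1 was at least 2-fold lower at 15.4%, and HSF2 had 26.6% higher and 5.28% lower.

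The sign of these medians depends on the zero point. Subtracting the median of each whole list gave −0.36 for HSF2, −0.12 for SOX2 and 0.04 for HSF1. The authors' peak list for HSF1 carries another pair of averaged means, which at the shared sites gave a median log2 M/A of −2.50. The direction for HSF1 was the same in both sources, and its size was not.

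**Figure D1:**
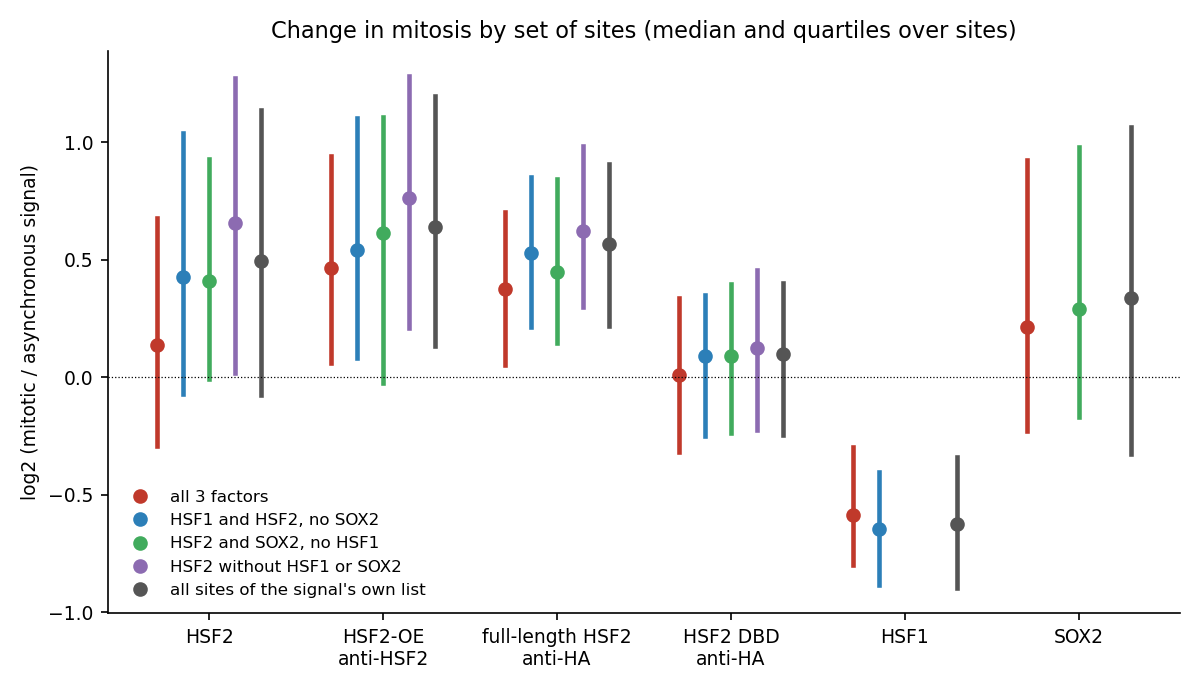
Log2 M/A (mitotic to asynchronous signal) for the 6 signals, by set of sites; points are medians and bars run from the lower to the upper quartile over sites. Sites shared by all 3 factors (red) have the lowest HSF2 median, 0.14, and an HSF1 median of −0.58.

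Within sites, HSF2 had a larger log2 M/A than HSF1 at 209 of 243 (86.0%), by a median of 0.72 (quartiles 0.27 and 1.38). SOX2 exceeded HSF1 at 202 sites (83.1%), by a median of 0.79 (quartiles 0.25 and 1.63). HSF2 and SOX2 differed by a median of −0.14, HSF2 minus SOX2, with HSF2 the higher at 108 sites and SOX2 at 135. After centring on whole lists, the differences from HSF1 took the other sign, at −0.39 for HSF2 and −0.17 for SOX2. The HSF2 minus HSF1 difference was 1.06 at the 625 sites of HSF1 and HSF2 without SOX2, so it was smaller where SOX2 was present, and the HSF2 medians of 0.14 and 0.43 differed more than the HSF1 medians of −0.58 and −0.65.

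Counting directions jointly, 90 sites (37.0%) had HSF1 lower in M with both HSF2 and SOX2 higher, the most common of the 8 patterns. HSF1 and HSF2 were lower with SOX2 higher at 57 sites, HSF1 and SOX2 lower with HSF2 higher at 42, and all 3 lower at 40. HSF1 was higher in M at only 14 sites, and all 3 were higher at 8. At 137 sites none of the 3 factors differed by 2-fold. The log2 M/A of the factors hardly ranked sites alike. Across the 243 sites Spearman's rho was 0.03 for HSF2 with HSF1, 0.11 for HSF2 with SOX2 and −0.11 for HSF1 with SOX2. Such correlations are over sites that share the same averaged libraries.

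**Figure D2:**
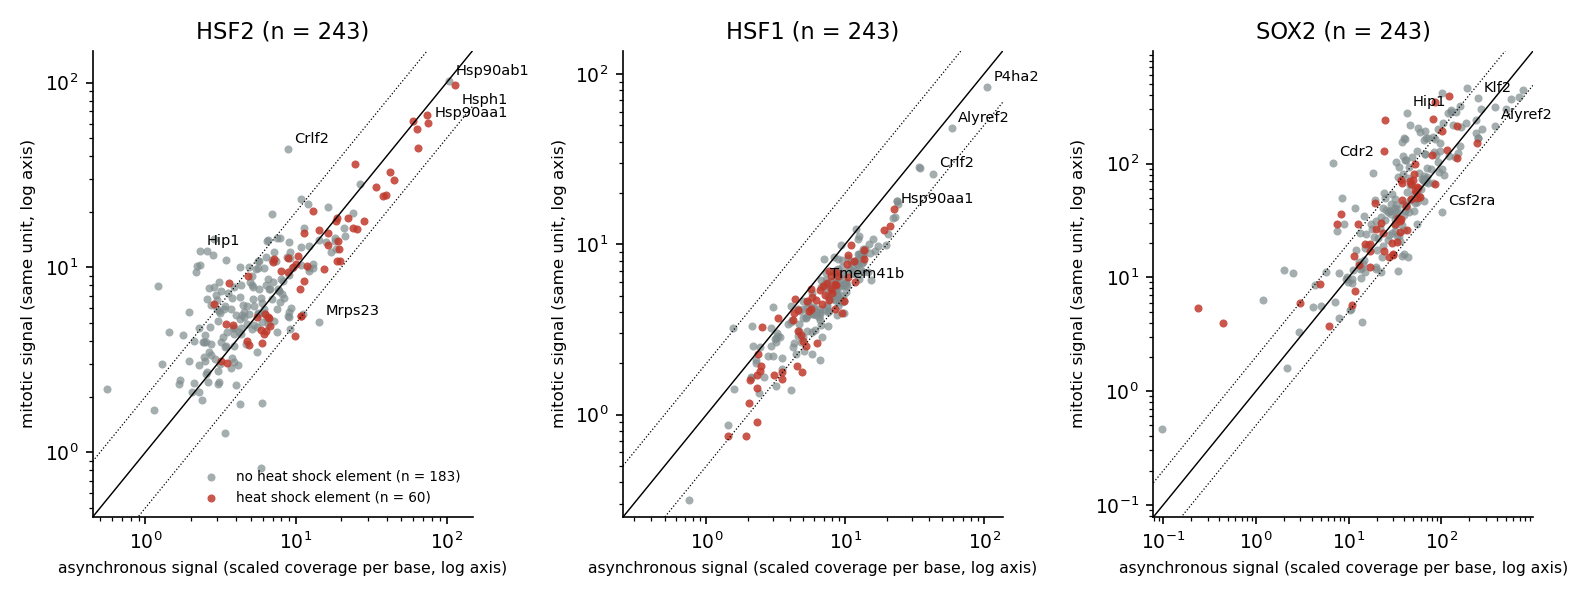
Mitotic against asynchronous signal at the 243 shared sites for HSF2, HSF1 and SOX2, both axes logarithmic in scaled coverage per base; the solid line marks equality and dotted lines a 2-fold difference. Of the HSF1 points 229 lie below equality, while HSF2 and SOX2 points lie on both sides, and sites with a heat shock element (red) reach the highest HSF2 signal.

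Of the 3 endogenous factors, HSF2 had the largest ratio of medians between sites with and without a heat shock element, in A and in M. The 60 sites with an element had a median HSF2 signal of 11.1 in A and 10.7 in M, and the 183 without had 4.75 and 6.17. The corresponding median log2 M/A was −0.25 with an element and 0.30 without. Among sites in the top quartile of HSF2 signal 50.8% held an element, and in the bottom quartile 8.20% did. That top quartile itself had a median log2 M/A of −0.19, against 0.17, 0.34 and 0.25 in the others, and HSF2 signal in A had a rho of −0.55 with the log2 M/A computed from it. Signal level and the element were not separated by a test. Over all shared sites HSF1 signal ran the other way in A, at 5.98 with an element and 7.93 without, and so did SOX2, at 34.7 and 39.5. For HSF1 this was seen only away from starts. Its medians were 8.52 with an element and 8.42 without within 1 kb of a coding start, and 5.25 and 6.57 farther away. SOX2 had 33.9 and 36.7 at starts, and 36.5 and 46.1 farther away. The sites whose element lay inside the SOX2 interval (17) had a median HSF2 signal of 24.0 in A and 17.8 in M, and the 43 whose element lay outside had 8.85 and 9.52.

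Distance to a gene start went with the element. Of the 125 sites at a start 16.8% held an element, and of the 118 others 33.1% did. Over all HSF2 intervals these shares were 9.77% and 25.7%, and at the HSF1 and HSF2 sites without SOX2 16.6% and 32.6%. At the shared sites the HSF2 median log2 M/A was 0.34 at a start and −0.03 away from one. Splitting both ways, it was 0.41 at starts without an element (104 sites), −0.21 at starts with one (21), 0.09 at distant sites without (79) and −0.31 at distant sites with one (39). Sites with an element had the lower median in both places. The same split of the 623 HSF1 and HSF2 sites without SOX2 that had reference sequence gave 0.62, 0.08, 0.27 and −0.28, in the same order. The shared sites had the lower median in each of the 4 classes, by least at distant sites with an element. HSF1 spanned a narrower range over these classes of shared sites, with medians of −0.63, −0.58, −0.57 and −0.51. GC content moved with the HSF2 ratio as well (rho 0.33 over 243 sites), and its part in these differences was not tested.

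**Figure D3:**
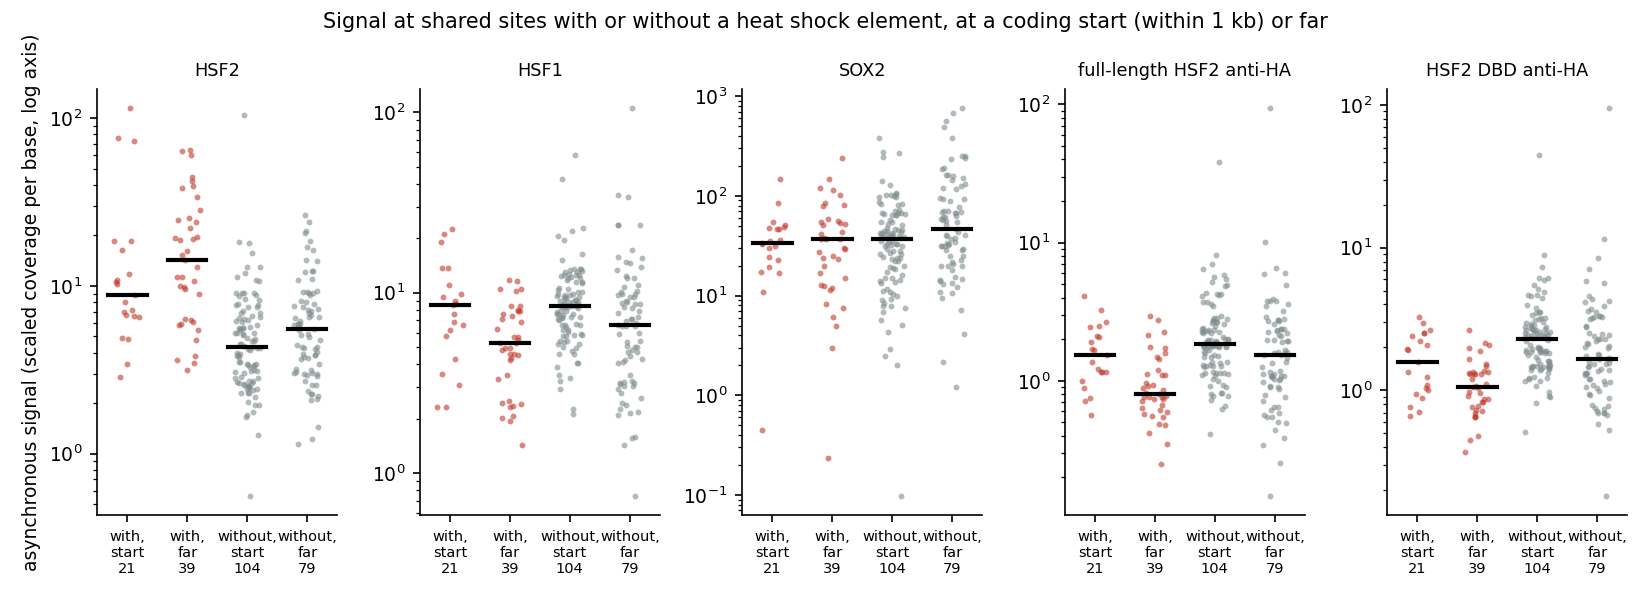
Asynchronous signal (scaled coverage per base, logarithmic axis) at shared sites with or without a heat shock element, within 1 kb of a coding start or farther; each point is a site, the line is the median and the number under each label counts sites. The HSF2 median is 14.2 at distant sites with an element and 4.33 at starts without one, whereas the construct medians are lowest at distant sites with an element.

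SOX2 signal itself did not order the HSF2 change. From the lowest to the highest quartile of SOX2 signal, the median log2 M/A of HSF2 was −0.03, 0.31, 0.22 and 0.07. For SOX2 the corresponding medians were 0.06, 0.10, 0.20 and 0.64, a measure that shares its values with the ranking. HSF1 signal in A went up over the same quartiles, with medians of 5.25, 6.75, 8.34 and 9.44, and full-length HSF2 with anti-HA had 0.93, 1.36, 1.80 and 2.14. Endogenous HSF2 had 5.67, 4.81, 5.93 and 6.88 and showed no comparable gradient.

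The tagged constructs in HSF2 KO cells were measured over the same HSF2 intervals. Full-length HSF2 with anti-HA had a median of 1.59 in A and 2.02 in M. It was higher in M at 189 of 243 sites (77.8%), and its median log2 M/A was 0.38, against 0.57 over all HSF2 intervals. It was at least 2-fold higher at 23 sites and lower at 4, where the whole list had 19.8% and 0.843%. The HSF2 DBD had 1.78 in A and 1.82 in M, a median of 0.01 (0.10 over all) and 124 sites higher in M against 119 lower. It was at least 2-fold higher at 6 and lower at 9, beside 3.98% and 3.37% of the list. HSF2-OE with anti-HSF2 had 1.47 in A and 2.01 in M and a median of 0.46 over the 240 sites above 0 in both phases (0.64 over all). There 54 sites were at least 2-fold higher and 5 lower, beside 33.5% and 2.92%. All constructs thus had smaller medians at shared sites than over the whole HSF2 list.

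The change of full-length HSF2 exceeded that of the HSF2 DBD at 182 sites (74.9%), by a median of 0.36 (quartiles −0.01 and 0.73). Over all HSF2 intervals the difference was 0.46. Centred on the medians of the whole lists it was −0.11.

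Where the constructs were strong was another matter. In A, the signal of full-length HSF2 went with that of endogenous HSF1 across the shared sites (rho 0.71), and the HSF2 DBD did the same (rho 0.70). With endogenous HSF2 the values in A were 0.00 and −0.04. In M they were higher, at 0.26 and 0.29, while those with HSF1 were 0.64 and 0.59. HSF2-OE, recognised by the same antibody target as endogenous HSF2, had a rho of 0.56 with HSF1 and 0.06 with HSF2 in A, and of 0.44 and 0.20 in M. Sites with an element, the strongest for endogenous HSF2, had the lower construct medians in A. They were 0.98 against 1.78 for full-length HSF2 and 1.15 against 1.97 for the HSF2 DBD. Over all HSF2 intervals the order was the same, at 0.894 against 1.46 and 1.18 against 1.75. At the HSF1 and HSF2 sites without SOX2 these medians were 0.919 against 2.02 and 1.24 against 2.26. The points of each signal share the same averaged libraries.

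**Figure D4:**
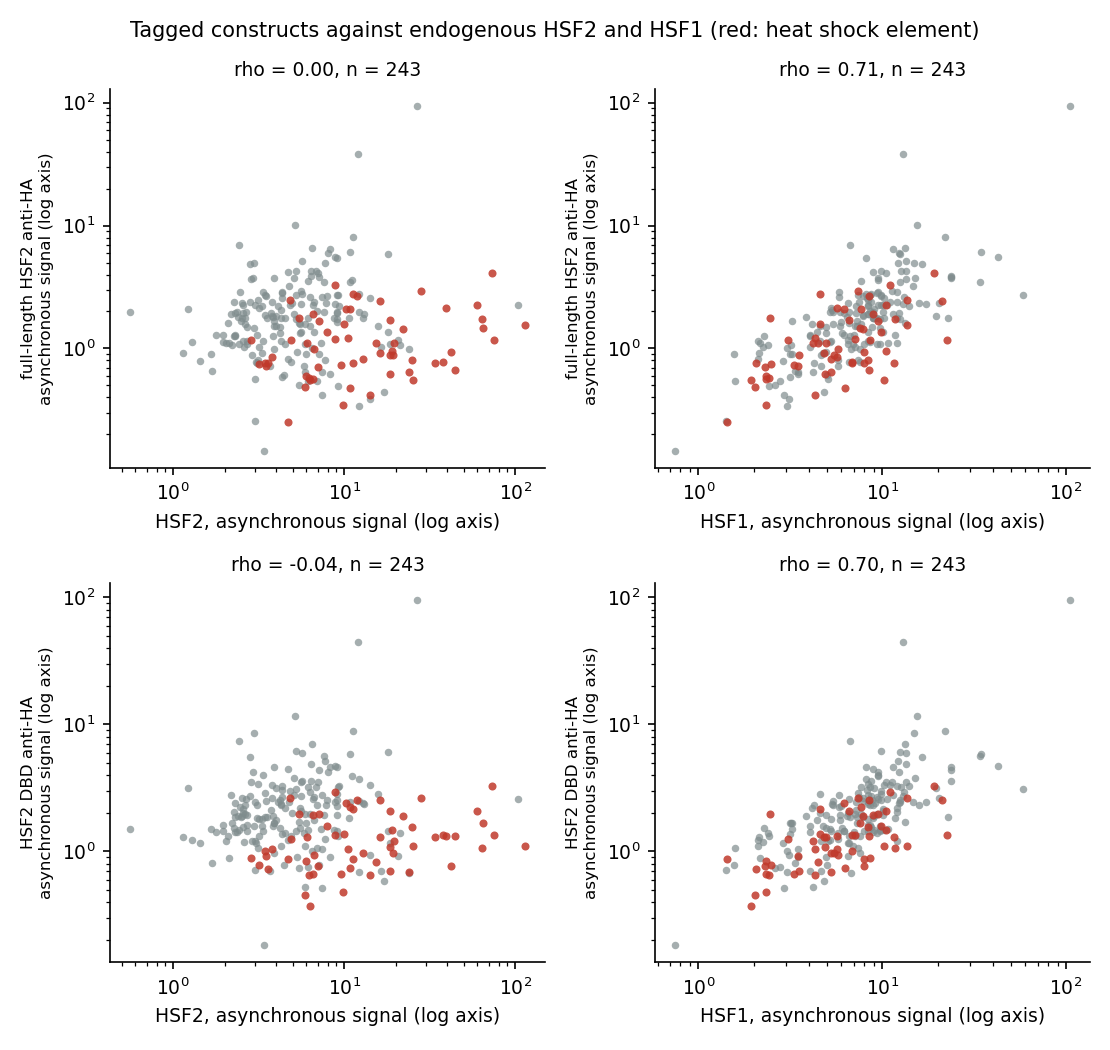
Asynchronous anti-HA signal of full-length HSF2 (top) and the HSF2 DBD (bottom) against endogenous HSF2 (left) and HSF1 (right) at the 243 shared sites, in scaled coverage per base on logarithmic axes; red points hold a heat shock element. The clouds are flat against HSF2 (rho 0.00 and −0.04) and tilted against HSF1 (rho 0.71 and 0.70).

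The 3 highest HSF2 signals in A among shared sites were at chaperone genes, Hsph1, Hsp90ab1 and Hsp90aa1. Of 66 chaperone and co-chaperone genes searched, 33 had a start within 1 kb of an HSF2 interval and 6 within 1 kb of a shared site, the others being Ahsa1, Cct3 and Serpinh1. Over all coding genes, 1817 had a start within 1 kb of an HSF2 interval and 158 within 1 kb of a shared site. Hsph1 (HSP110, a nucleotide exchange factor for HSP70) had the highest HSF2 signal in A, 114, with 96.6 in M (log2 M/A −0.24). Hsp90ab1 (the constitutive HSP90 beta) had 104 and 102. Both sites stood above the 99.3rd percentile of the HSF2 list in A and in M. Hsp90aa1 (the inducible HSP90 alpha) had 75.7 and 60.3, Ahsa1 (the activator of the HSP90 ATPase) had 15.7 and 13.8, Cct3 (a subunit of the chaperonin TRiC) 10.7 and 12.9, and Serpinh1 (the collagen chaperone HSP47) 6.55 and 5.39. HSF2 was thus slightly lower in M at 5 of the 6, with log2 M/A from −0.33 to 0.26, and at none was the difference 2-fold.

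HSF1 was lower in M at all 6 chaperone sites, between −0.79 at Cct3 and −0.13 at Ahsa1. SOX2 differed little at Hsph1 (17.0 in A, 19.7 in M) and at Hsp90aa1 (33.9 and 33.0). At Hsp90ab1 it went from 7.49 to 25.7, the only chaperone site with a SOX2 difference of at least 2-fold. SOX2 was lower in M at Serpinh1 (29.9 and 16.0) and Ahsa1 (35.7 and 20.7). The SOX2 interval of Hsp90aa1 lay 6275 to 6723 bp upstream of the start, apart from the element at the start, whereas that of Hsph1 lay 627 to 700 bp upstream. Within its own signal, full-length HSF2 was in the middle of the HSF2 list at Hsph1, with 1.55 in A and 2.01 in M (percentiles 57.4 and 49.6). There the HSF2 DBD had 1.10 and 2.55, the highest ratio of that construct among sites at or above its median signal (log2 M/A 1.22).

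Of 50 pluripotency regulators searched, 13 had an HSF2 interval within 1 kb of a start and 6 a shared site, against 158 of 1817 over all coding genes. HSF2 was lower in M at Pou5f1 (OCT4; 9.05 and 5.77), Mycn (a proto-oncogene; 6.67 and 4.80), Klf2 (a naive pluripotency factor; 6.55 and 4.92) and Jarid2 (a Polycomb cofactor; 12.9 and 9.92). It was higher at Etv4 (an ETS factor; 2.40 and 3.96) and Rif1 (a replication timing factor; 2.47 and 3.10). HSF1 was lower at all 6, and at Klf2 more than 2-fold (9.50 and 4.58, log2 M/A −1.05). SOX2 was lower at 5 of the 6, by 0.12 to 0.44 on the log2 scale, and higher at Klf2 (247 and 376). Klf2 had a second shared site 13659 bp away, with SOX2 at 120 and 117. The median HSF2 log2 M/A was −0.40 for these sites and −0.22 for the chaperone sites, both below the 0.14 of all shared sites.

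The other lists had few members. Nodal, of 44 signalling and formative genes, had HSF2 at 10.6 in A and 7.68 in M, HSF1 at 4.31 and 3.92, and SOX2 at 46.7 and 48.7. Ubb, the polyubiquitin gene, was the only 1 of 39 proteasome and ubiquitin genes, with HSF2 at 7.66 and 7.43 and HSF1 at 5.87 and 3.91. Of 40 histone and chromatin genes, Hist1h1a, Hist1h3a and Hist1h4a fell in a single shared site, where HSF2 was 6.40 and 5.23 and the HSF2 DBD went from 4.87 to 2.49. Histone genes outside this list also had starts in shared sites, among them Hist1h2bn, Hist1h2an, Hist1h2ah, Hist1h2af, Hist1h2bg, Hist1h3c and Hist4h4. The HSF2 log2 M/A was 0.34 and 0.41 in the cluster of Hist1h2bn and Hist1h2an. In that of Hist1h2af and Hist1h2bg it was −0.30 at one site and 0.64 at the other. No ribosome or translation gene of 51 had a start within 1 kb of a shared site. Over all 15 listed sites HSF2 was lower in M at 12, HSF1 at 15 and SOX2 at 9, while HSF2-OE was higher at 12, full-length HSF2 with anti-HA higher at 9 and the HSF2 DBD lower at 11. The lists were chosen by function, and their sites also had high HSF2 levels, with a median of 9.05 in A against 5.85 over all shared sites.

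**Figure D5:**
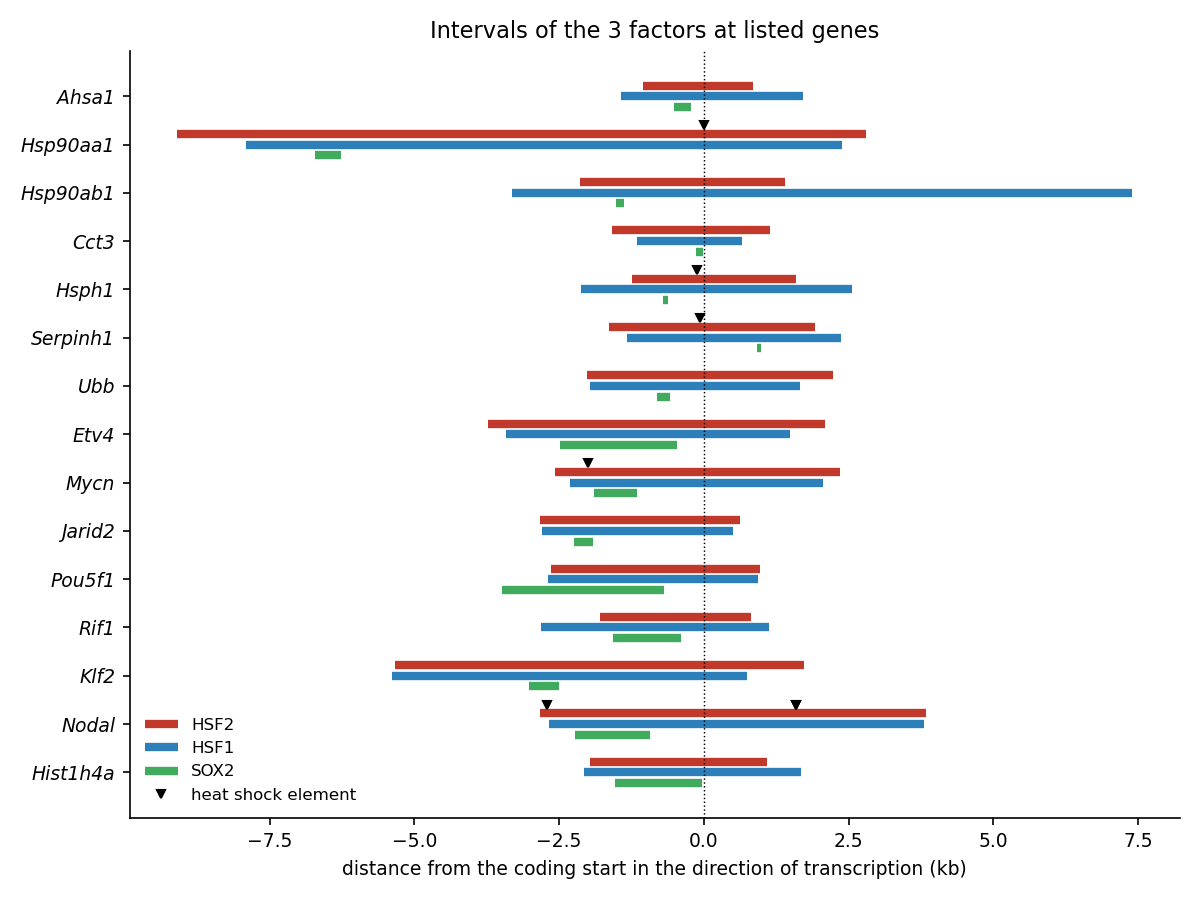
HSF2 (red), HSF1 (blue) and SOX2 (green) intervals at listed genes, in kb from a coding start in the direction of transcription; a bar spans all intervals where a site has several, and triangles mark heat shock elements. HSF2 and HSF1 intervals cover the start at all 15 sites, and SOX2 intervals lie upstream of it at 14, as far as 6723 bp at Hsp90aa1, and downstream at Serpinh1.

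Beyond the chaperones, the highest HSF2 signals by the mean of A and M were at Hnrnpa2b1 (73.6 in A, 66.6 in M) and at a site 8317 bp from Akr1b8, an aldo-keto reductase gene (60.0 and 61.7). Both hold an element inside the SOX2 interval, and the SOX2 signal of the second went from 149 to 214. Of the 5 strongest HSF2 sites, 4 held an element, Hsp90ab1 being the exception. The 5 sites whose element lay nearest the centre of a SOX2 interval included Hnrnpa2b1 and sites near Lmcd1, Tead1, Cops8 and Fzd2; distance to the centre was chosen as the criterion after the data were seen, since 17 sites tied at an element inside the interval. HSF2 there was 42.4 and 32.8 at Lmcd1 and 63.9 and 56.0 at Cops8 (a signalosome subunit gene). It was 11.3 and 8.48 at Tead1 (a TEAD factor gene), whose element lies in a coding exon, and 10.9 and 5.46 at Fzd2 (a Wnt receptor gene). HSF2 was lower in M at all 5, by 0.15 to 0.99 on the log2 scale, while SOX2 was higher at all 5, by 0.42 to 0.99. Over all 17 sites with an element inside the SOX2 interval, HSF2 was lower in M at 13 and higher at 4. SOX2 was higher in M at 13 of these 17 sites and lower at 4.

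Of the 5 strongest HSF1 and the 5 strongest SOX2 sites 2 were the same, and none was among the 5 strongest HSF2 sites. HSF1 was highest at a 695 bp site 39047 bp from P4ha2 (105 in A, 83.2 in M), which was 56.7% repeat sequence and also had the highest construct signals (93.6 and 93.5 for full-length HSF2, 94.6 and 64.8 for the HSF2 DBD). It was followed by Alyref2, an mRNA export gene (58.3 and 48.2), Crlf2, a cytokine receptor gene (42.8 and 25.9), a site 56050 bp from Tex14 (34.6 and 28.1) and a site 4022 bp from Arl4d (33.9 and 28.3). The 5 strongest SOX2 sites were the same Tex14 site (754 and 440), Arl4d (685 and 381), the other two Tex14 sites (563 and 370, 494 and 304) and a site 61722 bp from Gm14496 (382 and 316). SOX2 was lower in M at all 5, against 64.2% of shared sites where it was higher. The Tex14 sites were 34.6% to 45.4% repeat and the Gm14496 site 78.6%, and none of the 5 held an element. Spearman's rho between HSF1 and SOX2 signal in A was 0.40 over the 243 sites, against 0.12 for HSF2 with HSF1 and 0.13 for HSF2 with SOX2. In M the values lay closer together, at 0.36, 0.29 and 0.11.

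The largest differences between phases were taken among sites with a mean signal at or above the median. The highest HSF2 ratios of M to A were at starts of Hip1, an endocytic adaptor gene (2.30 and 12.2, log2 M/A 2.41), Fbxl12, an F-box gene (2.83 and 14.3, 2.33), and Crlf2 (8.84 and 43.8, 2.31). The lowest were at a site 10371 bp from Mrps23, a mitochondrial ribosome gene (14.2 and 5.08, −1.49), at one 4317 bp from Smagp (9.91 and 4.25, −1.22) and at Fzd2 (−0.99). At Hip1 SOX2 was higher as well (42.3 and 280, 2.73) with HSF1 lower (12.3 and 7.59). Among the 243 sites HSF2 was at least 2-fold higher at 34, SOX2 at 54 and both at 11. The joint count was not made over other HSF2 intervals, so whether the 2 factors rose together was not tested.

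The highest SOX2 ratios were at a start of Cdr2 (6.80 and 102, log2 M/A 3.91), near 1190005I06Rik (24.8 and 239, 3.27) and at Hip1. At Cdr2 HSF2 hardly differed (8.23 and 8.42), and near 1190005I06Rik it was lower in M (5.95 and 3.92). The lowest SOX2 ratios were at Csf2ra, a cytokine receptor gene (102 and 37.9, −1.43), Rras, a small GTPase gene (54.2 and 29.2, −0.89), and Arl4d (−0.84). HSF2 went the other way at Csf2ra (2.82 and 11.7, 2.05). At Crlf2, too, SOX2 was lower in M (277 and 203) while HSF2 was higher.

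Of the 3 factors, HSF1 had the narrowest spread of ratios. Its highest log2 M/A were small, 0.21 at Tmem41b (7.04 and 8.15), 0.08 at Hist1h2an and 0.02 near Abt1, and the first of these sites had HSF2 at 2.30 and 10.3. Its lowest were near Adamtsl4 (9.86 and 3.92, −1.33) and near Pura (15.5 and 6.20, −1.32). SOX2 near Adamtsl4 went from 58.9 to 188. The HSF2 DBD had its highest ratios at Hsph1, at Src, a tyrosine kinase gene (1.45 and 3.17, 1.13), and near Pde4d, a phosphodiesterase gene (1.67 and 3.52, 1.08). Its lowest were near Tex14 (5.86 and 2.87, −1.03), at Hist1h4a (−0.97) and at Stk38, a kinase gene (2.49 and 1.29, −0.95).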

How the data were processed

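The deposited values are signal, that is coverage per base. Following their methods, the authors aligned reads to mm10 with Bowtie2, kept PCR duplicates, scaled coverage by the reads of a Drosophila (dm6) spike-in and averaged the tracks of a condition. HSF1 and HSF2 intervals were called with SEACR against IgG, and SOX2 intervals came from the literature. The submitters' processing notes also name FastQC, deepTools and bedtools. The values of 12 of 19 conditions were used, and the deposited tables used here hold no columns of fold changes or p-values.

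Overlap of at least 1 bp, log2 M/A without a pseudocount, medians, shares and motif matches were computed with Python 3.11.15, numpy 2.4.6, pandas 2.3.3 and scipy 1.17.1, and tested on simulated data. No p-value was computed. The files give no read depth, and read totals listed by the study were not used here. Starts were those of coding transcripts in GENCODE M21, and sequence came from RefSeq GRCm38.p6. The members, gene lists and motifs were chosen with earlier results of these data known. Named sites were every shared site within 1 kb of a start of a listed gene, the 5 highest for HSF2, HSF1 and SOX2, the 3 highest and 3 lowest log2 M/A of these and the HSF2 DBD among sites at or above the median signal, and the 5 with an element nearest a SOX2 interval. One site that the rule names is not reported here. Sites named outside this rule are said to be so or serve to show a sequence, a cluster or the edge of the overlap rule. Alternatives covered pseudocounts, a minimum signal, summed signals, centring, overlap, interval choice, a stricter list and looser or stricter motifs.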

Additional observations from a re-analysis of the deposited data

How the results depend on the processing

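Of 87 alternatives for 14 results, 55 stayed within the 95% interval over sites (for the number of sites, within 1.5 times). The stricter HSF2 list left 153 sites. Subtracting the median of the whole list turned the sign of every median log2 M/A, to −0.36 for HSF2, −0.18 for HSF2-OE, −0.19 for full-length HSF2, −0.088 for the HSF2 DBD, 0.038 for HSF1 and −0.12 for SOX2. Subtracting that of the weakest quartile of the list gave −0.57, −0.063, −0.32, 0.0079, 0.011 and −0.083, so that the HSF2 DBD kept its sign. The differences became −0.39 and −0.58 for HSF2 minus HSF1, −0.30 and −0.55 for HSF2 minus SOX2, −0.17 and −0.10 for SOX2 minus HSF1, and −0.11 and −0.34 for full-length HSF2 minus HSF2 DBD. Subtracting a constant moves every site by the same amount by construction, and whether the sign turned depended on the values. HSF2 minus SOX2 kept its sign under both centrings. A pseudocount of 1 gave 0.29 for HSF2-OE, 0.22 for full-length HSF2, −0.49 for HSF1, 0.58 for HSF2 minus HSF1 and 0.23 for full-length HSF2 minus HSF2 DBD. The stricter list gave 0.32 for HSF2-OE, and summed signals 0.26 for full-length HSF2. The peak lists' own means, tried after seeing the data, gave −2.50 for HSF1 and 2.78 for HSF2 minus HSF1, and the cause was not tested. A start within 5 kb was found at 61.3% of sites, 2 units of the element at 84.8%, and the stricter composite at 0 of 243 sites (Wilson 95% upper limit 1.56%).

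No paired analysis was possible because the deposited columns are averages that carry no replicate numbers. For the same reason, no library could be left out. The averaged signal gives neither depth nor spread between cultures, so small differences between A and M cannot be set against either. Leaving out the sites over 10 kb wide or mostly repeats, also chosen after seeing the data, gave 0.17 for HSF2 and 0.21 for SOX2 over 226 sites.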

Other observations

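Several gene neighbourhoods held more than 1 shared site. Sites were joined where they lay within 50 kb of each other, a distance chosen after the data were seen. At Sall1, which encodes a zinc finger factor of embryonic stem cells, 2 sites 26.8 and 51.0 kb from a start had HSF2 at 18.4 and 5.47 in A and at 12.6 and 3.49 in M. SOX2 at these sites was 57.5 and 43.4 in A and 52.1 and 15.1 in M. Near Tbx3, which encodes a T-box factor, HSF2 was lower in M at one site (5.92 and 1.84) and higher at the other (4.44 and 6.23). The 2 sites of Tbx3 thus differed in the direction of HSF2. No test of these differences was possible.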
